A study of Mus musculus with 6 samples.

Results

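The genes described here are the 10 immediate early genes of the AP-1, Egr and Ier families, which are Fos, Fosb, Fosl2, Jun, Junb, Jund, Atf3, Egr1, Egr2 and Ier2. They were chosen by symbol, and each had 1 row in the table of 54532 genes. All 10 passed the filter on low counts, which left 13352 genes for testing. Their RNA was measured in leukemia cells that carried AML1-ETO9a (AE9a), a spliced form of the AML1-ETO fusion protein. The cells came from C57BL/6 bone marrow. By the methods, the model was made by retroviral transfer of AE9a with GFP into c-Kit positive progenitors and is kept by transplantation, so all 6 libraries come from 1 transplantable leukemia model, sorted for GFP. No further allele or agent is labelled for any library. The 3 libraries of central bone marrow (CBM) were from cells flushed out of the bones, and the 3 libraries of endosteal bone marrow (EBM) were from cells that collagenase freed from the flushed bones. The labels state that cells were held in medium with serum before and after sorting. Collagenase digestion was applied to every EBM library and to no CBM library, so region and digestion cannot be told apart. By the methods, the sequenced cells were taken from mice of the third transplant generation, and wild-type females were bought as young adults of a few weeks of age. The age at which the cells were taken, and whether the libraries of a region came from separate mice, are not given in the sources used here, so the p-values below measure only the spread between these libraries.

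Immediate early genes are transcribed within minutes of a signal, from factors already present in the cell, and their RNAs are short-lived. Fos and Jun proteins pair through leucine zippers to form AP-1, which binds DNA at AP-1 and CRE motifs, while Egr proteins are zinc finger factors that bind GC-rich sites. In blood cells these genes respond to cytokines, adhesion, inflammatory signals and stress, and they are also known to respond to handling and enzymatic release of tissue.

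The members differ in gene structure as well as in protein family. Jun, Junb, Jund and Ier2 have 1 exon in their longest coding transcript of GENCODE M21, Egr1 and Egr2 have 2 exons, and Fos, Fosb, Fosl2 and Atf3 have 4 exons. In the table, on GRCm38, Fos lies on chromosome 12 from 85473890 to 85477273 on the plus strand, and Fosb on chromosome 7 from 19302696 to 19310051 on the minus strand. Jun lies on chromosome 4 from 95049034 to 95052222 on the minus strand. Junb (84974484 to 84978718, minus strand), Jund (70698949 to 70700616, plus strand) and Ier2 (84661331 to 84662852, minus strand) are all on chromosome 8. Fosl2 is on chromosome 5 from 32135801 to 32157842, Atf3 on chromosome 1 from 191170296 to 191218039 and Egr2 on chromosome 10 from 67535475 to 67542188.

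The bases just before the transcription start are shown for Fos, Fosb, Jun and Junb, because they are well counted members whose within-library ratios are described below. The sequences are from RefSeq on GRCm38.p6, 250 bases each, 5′ to 3′ on the strand of the gene. They cover chr12:85473640-85473889 (plus), chr7:19310046-19310295 (minus), chr4:95052223-95052472 (minus) and chr8:84978749-84978998 (minus). Capitals mark letters that match a searched motif.
Fos: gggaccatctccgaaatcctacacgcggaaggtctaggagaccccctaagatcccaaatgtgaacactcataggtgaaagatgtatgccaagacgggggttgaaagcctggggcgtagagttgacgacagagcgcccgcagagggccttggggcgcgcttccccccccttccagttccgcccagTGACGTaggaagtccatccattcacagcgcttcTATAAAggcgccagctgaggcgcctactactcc
Fosb: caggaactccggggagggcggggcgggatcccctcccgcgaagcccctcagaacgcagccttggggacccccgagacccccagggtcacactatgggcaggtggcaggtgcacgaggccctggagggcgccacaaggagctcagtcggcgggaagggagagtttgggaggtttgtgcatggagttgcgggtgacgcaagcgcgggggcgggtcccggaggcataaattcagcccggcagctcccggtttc
Jun: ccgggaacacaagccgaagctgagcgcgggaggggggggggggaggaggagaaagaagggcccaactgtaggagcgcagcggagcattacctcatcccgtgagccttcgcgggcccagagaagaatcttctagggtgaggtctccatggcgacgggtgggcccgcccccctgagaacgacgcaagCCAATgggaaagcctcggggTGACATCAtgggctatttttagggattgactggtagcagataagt
Junb: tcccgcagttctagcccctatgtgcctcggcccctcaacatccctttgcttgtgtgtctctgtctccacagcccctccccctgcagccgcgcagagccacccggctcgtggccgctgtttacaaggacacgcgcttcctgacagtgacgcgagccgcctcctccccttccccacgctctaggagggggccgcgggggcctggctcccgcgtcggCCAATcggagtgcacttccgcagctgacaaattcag

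The motifs searched, on both strands, were the full CRE, TGACGTCA, and its core, TGACGT, which is held by each full CRE. Further motifs were the AP-1 motif, TGACTCA, a variant known from the Jun promoter, TGACATCA, the TATA box as TATAAA and the CAAT box as CCAAT. The Egr motif was searched as GCGTGGGCG, and the CArG box, bound by serum response factor, by its usual pattern. Fos held the core TGACGT at 66 to 61 bases before the start and a TATA box at 33 to 28 bases before it. Among all 32851 windows of this length, 6.47% held the CRE core and 12.4% the TATA box. Jun held TGACATCA at 45 to 38 bases before the start, a motif found in 2.93% of windows, and a CAAT box, found in 33.8%. Junb held a CAAT box, and the Fosb window held none of the 8 motifs. Of the windows not printed, that of Atf3 held the CRE core, and the windows of Fosl2 and Jund held none. Of the 5 starts listed for Egr2, 4 were preceded by a CArG box (1.47% of windows), with 2 distinct boxes among them, and 3 of these overlapping windows also held the CRE core and a CAAT box. The RefSeq start lies 1210 bases before the start of the gene in the count table for Jund, and after it by 671 bases for Fosl2, 34706 for Atf3 and 24 to 2455 for Egr2. The AP-1 motif (4.46% of windows), the full CRE (1.55%) and the Egr motif (0.536%) were in none of the members' windows. RefSeq windows were found for 8 members and not for Egr1 and Ier2. A match describes letters in the window, not a bound site.

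Libraries held between 17078883 and 19462964 counts in CBM and between 16436526 and 18413131 in EBM. A floor of 3 counts in a library corresponds to 0.154 to 0.183 CPM (counts relative to library size), and covers counting error only. The first principal component (53.0% of the variance) put CBM replicate 1 with EBM replicates 1 and 2 on one side, and CBM replicate 2 with EBM replicate 3 on the other, with CBM replicate 3 between them, so the largest split ran across the regions. The 4 leukemia markers summed to 557 to 586 CPM in CBM and 552 to 571 in EBM, and of these Kit was 220 ± 8.15 CPM in CBM and 220 ± 22.2 in EBM (SD, n = 3 each). Of 10 osteoblast and stromal markers, 1 (Runx2) passed the filter, and the summed level of the list was 8.25 to 13.0 CPM in CBM and 7.45 to 9.57 in EBM, with Sp7 and Alpl at 0 in every library. The neutrophil list (7 genes) ranged from 2.33 to 171 CPM in CBM and from 26.7 to 114 in EBM. The summed levels were 1.94 to 3.37 against 0.964 to 2.65 CPM for the 5 endothelial markers, 5.41 to 12.3 against 5.20 to 14.0 for the 8 monocyte and macrophage markers, 0.397 to 1.16 against 0.514 to 1.16 for the 6 lymphoid markers, and 1094 to 4014 against 1257 to 2934 for the 5 erythroid markers, CBM first. Emcn and Ms4a1 were at 0 in every library. The part of these other cell types in the results below was not tested. In bulk RNA, fewer cells that express a gene and less of its RNA per cell cannot be told apart.

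The members were among the most abundant RNAs of these leukemia cells and also among the least abundant. Compared per length (RPKM, here CPM per kilobase of gene length), the means over all 6 libraries ran from 503 for Fosb through 483 for Jund, 434 for Ier2, 412 for Junb, 160 for Jun, 56.8 for Fos and 50.3 for Egr1 to 0.841 for Fosl2, 0.351 for Atf3 and 0.197 for Egr2. Fosb ranked 76th of the 13352 tested genes per length, and 5th of all 54532 genes by its total of counts, since its counted length of 6243 bases is long. Its longest coding transcript has 3782 bases, so its RPKM and its place in this order depend on the length used. The order among the 4 highest was not fixed, as Fosb was above Jund in 3 of 6 libraries and Ier2 above Junb in 3 of 6. Junb was above Jun, and Jun above Fos, in 6 of 6 libraries. Fos and Egr1 stood in either order, with Fos above Egr1 in the 3 CBM libraries and below it in the 3 EBM libraries. The 3 lowest members, from Fosl2 down, were below every other member in every library.

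**Figure D1:**
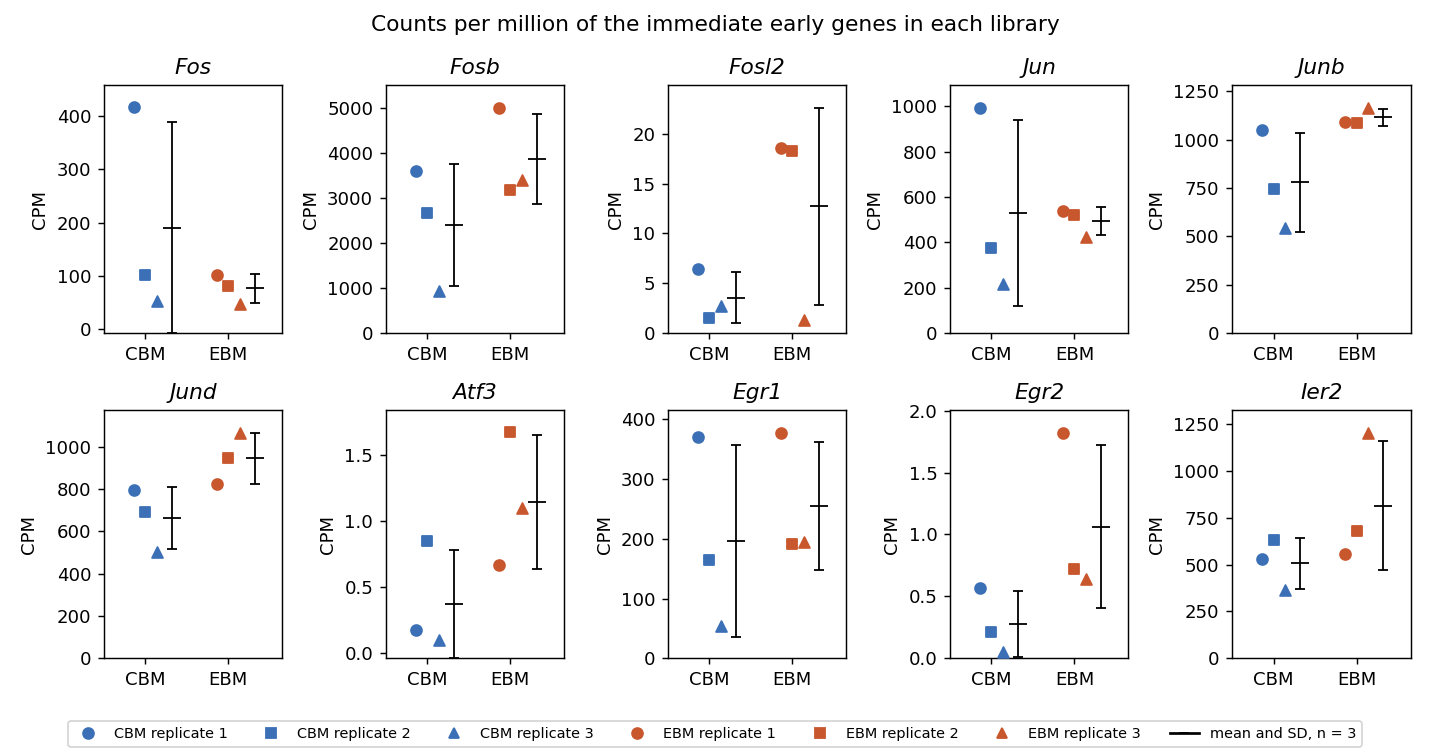
CPM (y axis, TMM scaled, each panel on its own scale) of the 10 members in the 3 CBM and 3 EBM libraries, with the marker shape giving the replicate number and the black bar the mean and SD of a region. Fos in CBM replicate 1, at 417 CPM, stands above all other Fos values, and every EBM value of Junb, Jund and Egr2 is above every CBM value.

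None of the 10 members passed an adjusted p of 0.05 between EBM and CBM in edgeR's quasi-likelihood test, where 0 of 13352 genes (0%) passed and 1056 had an unadjusted p under 0.05. The members' adjusted p-values lay between 0.565 and 0.989. At an unadjusted edgeR p under 0.05 were 2 members, Jund and Egr2, where 7.91% of all tested genes reached this level in either direction and 4.01% did so with higher values in EBM. The fitted log2 fold change was above 0 for 8 members and below 0 for 2, Fos and Jun, and it was above 0 for 50.4% of all tested genes. The median log2 fold change (EBM minus CBM) was 0.60 over the members and 0.0017 over all tested genes, and leaving out 1 library at a time moved the members' median between 0.33 (without CBM replicate 3) and 0.94 (without CBM replicate 1). Atf3 and Egr2 reached the count minimum in all 3 EBM libraries and in only 1 CBM library each, so they passed the filter only through the region where they are high. A filter of 1 CPM in 3 libraries, which left both out, gave 6 of 8 members higher and 2 lower, at a median of 0.51. With 3 libraries against 3, the exact two-sided permutation test cannot give a p below 0.1. DESeq2 also called none of the 9 members to which it gave an adjusted p (it gave none for Egr2), where it called 173 of 12760 genes (1.36%). It put 4 members, Junb, Jund, Ier2 and the barely counted Egr2, at an unadjusted p under 0.05. This level was reached by 4.05% of the 24771 genes to which it gave a p. These genes include the low counts that the edgeR filter left out, so this share is not that of well counted genes.

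**Figure D2:**
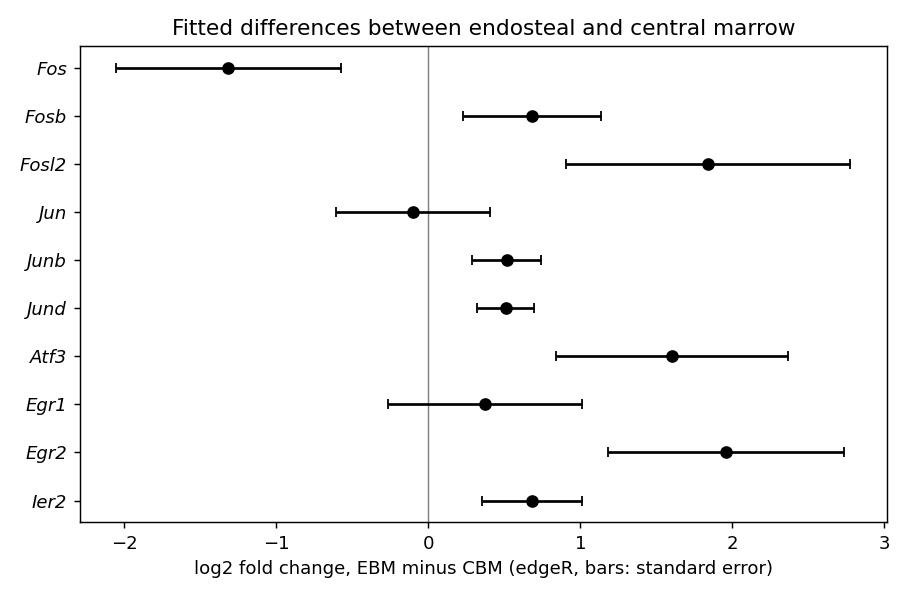
Fitted log2 fold change (x axis, EBM minus CBM, edgeR) of each member (y axis), with bars for 1 standard error and the vertical line at 0. The points run from -1.31 for Fos to 1.96 for Egr2, and none passed the adjusted threshold.

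The 3 members of the Fos family, which supply the partner of Jun proteins in AP-1, did not show 1 pattern. Fos, the founding member, had 7325, 1941 and 1054 counts in the CBM libraries, here and below in the order of replicates 1, 2 and 3, and 1832, 1456 and 737 in the EBM libraries. Scaled to library size these were 417, 102 and 52.3 CPM in CBM and 101, 81.1 and 47.4 CPM in EBM. CBM replicate 1 stood far above the other 5 libraries, which lay between 47.4 and 102 CPM and overlapped between the regions. The fitted log2 fold change of -1.31 ± 0.74 (SE, edgeR adjusted p = 0.725, exact permutation p = 0.4) rested on that library, since it was -0.011 without it.

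Fosb, which pairs with Jun proteins as Fos does and whose spliced forms (such as the truncated ΔFosB) are not told apart by gene counts, was the most abundant member. It had 63405, 50886 and 19017 counts in CBM and 90773, 57268 and 52977 in EBM, which is 3608, 2679 and 944 CPM against 5011, 3188 and 3404 CPM. CBM replicate 3 was the lowest by a wide margin, EBM replicate 1 was the highest, and the regions overlapped through CBM replicate 1. The mean was 2410 ± 1352 CPM in CBM and 3868 ± 996 in EBM (SD, n = 3 each), a ratio of 1.60, with a log2 fold change of 0.68 ± 0.46 (SE, edgeR adjusted p = 0.795). Per length, Fosb made up 76.5 to 90.8% of the Fos family sum in CBM and 93.4 to 96.4% in EBM, so its share did not overlap between the regions, while the share of Fos was 9.19 to 23.4% in CBM and 3.56 to 6.30% in EBM. The 2 shares nearly mirror each other, because Fosl2 added at most 0.345% in any library. They therefore nearly restate the ratio of Fos to Fosb given below and are no separate result. The ratio of Fosb to a tested gene was higher in every EBM library than in every CBM library for 13.4% of 13293 genes.

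Fosl2, which encodes Fra-2, was counted 113, 29 and 55 times in CBM and 337, 328 and 20 times in EBM. These are 6.43, 1.53 and 2.73 CPM against 18.6, 18.3 and 1.28 CPM. EBM replicate 3 was the lowest library of all 6, while the other 2 EBM libraries were the highest, so the regions overlapped despite a log2 fold change of 1.84 ± 0.93 (SE, edgeR adjusted p = 0.693, exact permutation p = 0.4). The 3 libraries with the highest Fosl2 were the 3 that lay together on the first principal component, CBM replicate 1 and EBM replicates 1 and 2. Without EBM replicate 3 the log2 fold change was 2.36 and the edgeR adjusted p of 0.324 did not pass the threshold. EBM replicate 3 alone made the regions overlap, so their separation without it is no support.

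The Jun family, whose proteins form AP-1 with a Fos partner or with each other, differed in how even its members were. Jun, the classical partner of Fos, had 17468, 7140 and 4364 counts in CBM and 9739, 9338 and 6587 in EBM, or 994, 376 and 217 CPM against 538, 520 and 423 CPM. The CBM libraries lay on both sides of all EBM libraries, so there was no ordered difference. The log2 fold change was -0.10 ± 0.51 (SE, edgeR adjusted p = 0.989) and was 0.74 without CBM replicate 1, so its sign also rested on that library.

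Junb, which often opposes Jun at shared targets and restrains myeloid cell growth, was more even and higher in each EBM library. It had 18456, 14190 and 10941 counts in CBM and 19802, 19523 and 18145 in EBM, or 1050, 747 and 543 CPM against 1093, 1087 and 1166 CPM. The EBM libraries lay within 1.07-fold of each other, the CBM libraries within 1.93-fold, and the groups did not overlap. The gap from the highest CBM library to the lowest EBM library was small beside the CBM spread, and the log2 fold change of 0.52 ± 0.23 (SE, edgeR adjusted p = 0.645, exact permutation p = 0.1) did not pass. Junb overlaps Prdx2 on the opposite strand, which had 9607 to 18101 counts, and without a stated strand setting for the counting, reads of the 2 genes where they overlap cannot be told apart.

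Jund, which is expressed more steadily than its relatives in most cells, had 13975, 13161 and 10181 counts in CBM and 14929, 16975 and 16608 in EBM. In CPM these are 795, 693 and 505 against 824, 945 and 1067. All 3 EBM values were above all 3 CBM values, by a narrow margin between EBM replicate 1 and CBM replicate 1. Its log2 fold change was 0.51 ± 0.19 (SE, edgeR adjusted p = 0.565, exact permutation p = 0.1), with the smallest edgeR p of the 10 members. Per length, Jund made up 38.3 to 49.9% of the Jun family sum in CBM and 43.4 to 50.0% in EBM, Junb 36.7 to 38.9% and 39.3 to 41.8%, and Jun 11.2 to 25.0% and 10.4 to 14.8%. The Junb share did not overlap between the regions on this scale, and the shares of Jun and Jund did. Without division by length the Junb shares overlapped, at 37.0 to 42.9% in CBM and 42.6 to 44.5% in EBM. The ratio of Junb to a tested gene was higher in every EBM library than in every CBM library for 29.3% of 13293 genes.

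Atf3, a stress-induced factor that pairs with Jun proteins, was barely counted, with 3, 16 and 2 counts in CBM and 12, 30 and 17 in EBM. In CBM replicates 1 and 3 it was at or under the floor of 3 counts. The levels of 0.171, 0.842 and 0.0992 CPM in CBM overlapped with 0.662, 1.67 and 1.09 CPM in EBM. The log2 fold change of 1.61 ± 0.76 (SE, edgeR adjusted p = 0.677, exact permutation p = 0.2) ran from 1.15 without CBM replicate 3 to 3.04 without CBM replicate 2.

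Of the Egr zinc finger factors, Egr1, which is induced in parallel with Fos by serum and growth factors, had 6498, 3141 and 1092 counts in CBM and 6837, 3440 and 3036 in EBM. These are 370, 165 and 54.2 CPM against 377, 192 and 195 CPM. Replicate 1 was the highest library in each region, at nearly the same level, and CBM replicate 3 was the lowest of all. The log2 fold change was 0.38 ± 0.64 (SE, edgeR adjusted p = 0.972) and took the value -0.074 without CBM replicate 3, so the difference was well within the spread.

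Egr2, known for its role in myelination and in macrophages and lymphocytes, had only 10, 4 and 1 counts in CBM and 33, 13 and 10 in EBM. The lowest EBM libraries were just above the highest CBM library, at 0.724 and 0.643 CPM against 0.569 CPM, and CBM replicate 3 was under the floor. Its log2 fold change of 1.96 ± 0.78 (SE, edgeR adjusted p = 0.596, exact permutation p = 0.1) therefore rested on few counts. In all, 3 members (Junb, Jund and Egr2) were higher in each EBM library than in any CBM library, a pattern that 7.47% of all tested genes had, and none was lower in each, as 7.65% of genes were (15.1% of genes in either direction). Egr2 passed the filter only through EBM, as stated above, so its place in this count is no support.

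Ier2, a small nuclear protein of the immediate early response that is outside the AP-1 and Egr families, had 9275, 11975 and 7297 counts in CBM and 10045, 12240 and 18721 in EBM. In CPM these are 528, 630 and 362 against 555, 681 and 1203. EBM replicate 3 was the highest, EBM replicate 2 was just above the CBM libraries and EBM replicate 1 lay among them. The log2 fold change of 0.68 ± 0.33 (SE, edgeR adjusted p = 0.678, exact permutation p = 0.2) was 0.28 without EBM replicate 3.

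The members varied between libraries of the same region more than most genes did. The SD of log2 CPM within regions was 1.15 for Fos, 1.68 for Fosl2, 1.06 for Egr1, 0.80 for Jun and 0.76 for Fosb, against a median of 0.22 over all tested genes. Among all tested genes the members stood between the 59.2nd percentile of this SD (Jund) and the 99.1st (Fosl2), with a median at the 94.1st. The spread was not the same in both regions. The highest CBM library was 3.82 times the lowest for Fosb, 4.59 times for Jun, 6.82 times for Egr1 and 7.97 times for Fos, and in EBM these ratios were 1.57, 1.27, 1.97 and 2.14. The exceptions were Fosl2, with a ratio of 4.21 in CBM and 14.5 in EBM, and Ier2, with 1.74 and 2.17. How many of all tested genes spread more widely in CBM was not counted, so this difference is not shown to be a trait of the members.

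CBM replicate 3 held the lowest value for 8 of the 10 members. The exceptions were Fos and Fosl2, which were lowest in EBM replicate 3. Among the 8 are Atf3 and Egr2, with 2 and 1 counts in CBM replicate 3, under the floor. The share of all tested genes that were lowest in CBM replicate 3 was not counted, so the pattern is not shown to be particular to the members. EBM replicate 1 held the highest value for 4 members, EBM replicate 3 for 3, CBM replicate 1 for 2 (Fos and Jun) and EBM replicate 2 for 1. With each member centred on its own mean log2 CPM, the CBM libraries had means of 0.39, -0.29 and -1.19 over the members and the EBM libraries 0.61, 0.46 and 0.027. These means include Atf3 and Egr2, which passed the filter only through EBM, so they are no support for a difference between the regions. The place of CBM replicate 1 in this order depends on those members, since Atf3 stood at -1.26 there.

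**Figure D3:**
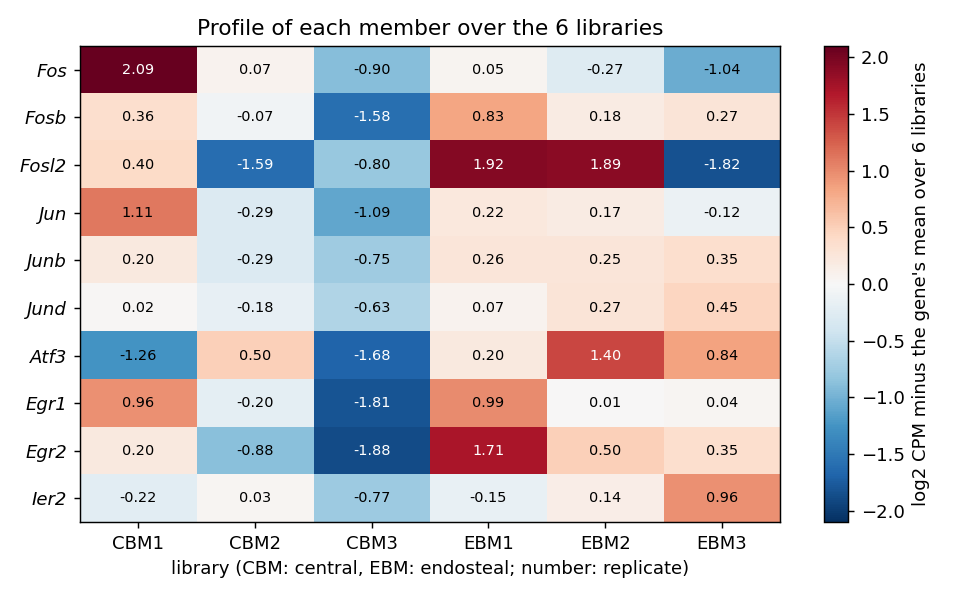
Log2 CPM of each member (y axis) in each library (x axis), with the member's mean over the 6 libraries subtracted, as numbers and as colour. CBM replicate 3 is lowest for 8 of 10 members, with Atf3 and Egr2 there under the floor of 3 counts, and Fos in CBM replicate 1, at 2.09, is the highest value of the map.

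Because the members share the scale of each library, they were also compared as ratios within a library, an analysis chosen after the values were seen. Fos relative to Fosb, in RPKM, was 0.307, 0.101 and 0.147 in CBM and 0.0536, 0.0675 and 0.0369 in EBM. Every EBM ratio was below every CBM ratio, with a difference of the mean log2 ratios of -1.70 (exact permutation p = 0.1, the smallest possible). Relative to Jun, Fos was 0.569, 0.369 and 0.327 in CBM and 0.255, 0.211 and 0.152 in EBM, again without overlap and with a difference of -1.02. Relative to Egr1, Fos was 2.15, 1.18 and 1.84 in CBM and 0.511, 0.807 and 0.463 in EBM, a difference of -1.54, and Fos to Junb (0.388, 0.134 and 0.0942 against 0.0905, 0.0730 and 0.0397) and Fos to Egr2 also did not overlap. The ratios of Fos to Jund, Ier2, Fosl2 and Atf3 overlapped between the regions. So 5 of the 9 ratios of Fos to another member were lower in every EBM library, and these 5 ratios all share Fos. The ratio of Fos to a tested gene was so for 2.49% of 13293 genes. The ratio to Egr2 is among the 5, and Egr2 passed the filter only through EBM, so its place in this count is no support. For Egr2, which has few counts, 5 of the 9 ratios to another member were higher in every EBM library, where 58.1% of genes gave such a ratio.

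**Figure D4:**
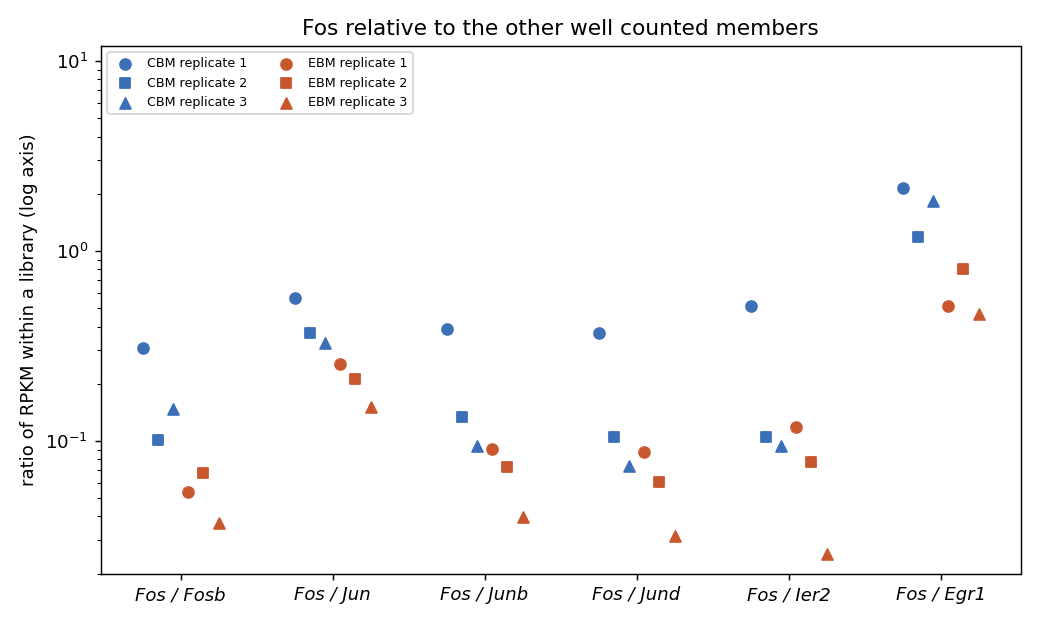
Ratio of Fos to another member within each library (y axis, RPKM ratio, log axis) for the 6 best counted partners (x axis), with colour for the region and marker shape for the replicate number. The EBM ratios lie below all CBM ratios for Fosb, Jun, Junb and Egr1, and overlap with them for Jund and Ier2.

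Other genes of the pathway were taken from 5 lists, and 0 of their 67 tested genes passed the adjusted threshold in edgeR. Among 13 other dimer partners of AP-1, Maf and ATF type, 7 were tested, and EBM was higher for 5 and lower for 2, at a median log2 fold change of 0.13. Maff, a small Maf protein, was 31.8 ± 16.1 CPM in CBM and 68.5 ± 12.9 in EBM (SD, n = 3 each), without overlap of the regions (log2 fold change 1.11, edgeR adjusted p = 0.479). Its relative Mafg (log2 fold change 0.22, edgeR adjusted p = 0.639) and Atf7 (0.13, edgeR adjusted p = 0.772) also did not overlap between the regions, and Atf2 was at -0.10 (edgeR adjusted p = 0.946). So 3 of the 7 were higher in each EBM library than in any CBM library, against 7.47% of all tested genes. In each list the genes named were picked by the smallest p, so a lack of overlap among them is no further support.

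Of the other Egr family and their Nab corepressors, 3 of 4 were tested, with a median of 0.40. Egr3, a close relative of Egr2, was at 0.226 ± 0.347 CPM in CBM and 1.42 ± 0.941 in EBM (SD, n = 3 each), with no count in CBM replicate 3 (edgeR adjusted p = 0.596). Like Egr2, Egr3 has few counts and passed the filter only through EBM, so its higher value there is no support. Nab1, which restrains Egr proteins, was at -0.085 and Nab2 at 0.40 on the log2 scale (edgeR adjusted p = 0.924 and 0.897).

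The list of 31 other immediate early genes had 25 tested, and EBM was higher for 18 and lower for 7, at a median of 0.42 on the log2 scale. The unadjusted edgeR p was under 0.05 for 9 of the higher and 2 of the lower genes, where 4.01% and 3.90% of all tested genes reached this level. Nr4a3, among the 9, had 0.797, 0 and 0.0496 CPM in CBM and 8.72, 7.01 and 1.29 CPM in EBM. It passed the filter only through EBM, so its place in this count is no support. Myc, the growth-promoting factor, was 126 ± 15.6 CPM in CBM and 52.6 ± 1.25 in EBM (SD, n = 3 each), with no overlap (log2 fold change -1.26, edgeR adjusted p = 0.0583). Dusp1, the phosphatase that switches off MAP kinases and is usually induced with Fos, was 1329, 764 and 595 CPM in CBM and 382, 447 and 400 CPM in EBM, with all EBM values below all CBM values (log2 fold change -1.13, edgeR adjusted p = 0.361). Trib1, a pseudokinase, was 2.18 ± 0.613 against 9.47 ± 4.03 CPM (SD, n = 3 each; log2 fold change 2.12, edgeR adjusted p = 0.189). Csrnp1, a nuclear immediate early protein, was 46.8 ± 27.5 against 159 ± 57.8 CPM (SD, n = 3 each; log2 fold change 1.77, edgeR adjusted p = 0.368). These 4 genes passed DESeq2's adjusted threshold. Over the list, every EBM value was above every CBM value for 5 tested genes, Nr4a3 among them, and below for 2, against 7.47% and 7.65% of all tested genes.

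The 23 kinases and transcription factors upstream of the members were close to even, since EBM was higher for 13 and lower for 10, at a median of 0.028. None reached an unadjusted edgeR p under 0.05. Elk4, a partner of serum response factor, was at 0.21 (edgeR adjusted p = 0.645), Map2k7, a kinase of the JNK cascade, at 0.19 (edgeR adjusted p = 0.685), and Crem, a CRE-binding factor, at 0.96 (edgeR adjusted p = 0.679), with overlap between the regions for Crem alone of the 3. Every EBM value was above every CBM value for 2 of the 23 genes, near the share of 7.47% of all tested genes. Rps6ka4, a kinase that phosphorylates CREB and histone H3, was at -0.23 (edgeR adjusted p = 0.732).

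Of 15 genes known as AP-1 targets, 9 were tested, and EBM was higher for 7 and lower for 2, at a median of 0.29. Il1b, the inflammatory cytokine, was 15.5 ± 15.3 CPM in CBM and 147 ± 74.7 in EBM (SD, n = 3 each; log2 fold change 3.26, edgeR adjusted p = 0.331, DESeq2 adjusted p = 0.0355). Cd44, an adhesion receptor, was 98.0 ± 6.28 against 120 ± 6.72 CPM (SD, n = 3 each; log2 fold change 0.29, edgeR adjusted p = 0.499), and neither gene overlapped between the regions. They were the 2 of 9 tested genes with every EBM value above every CBM value, against 7.47% of all tested genes. Il6 (log2 fold change 1.69, edgeR adjusted p = 0.830) and the ferritin chain Fth1 (0.16, edgeR adjusted p = 0.810) overlapped.

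**Figure D5:**
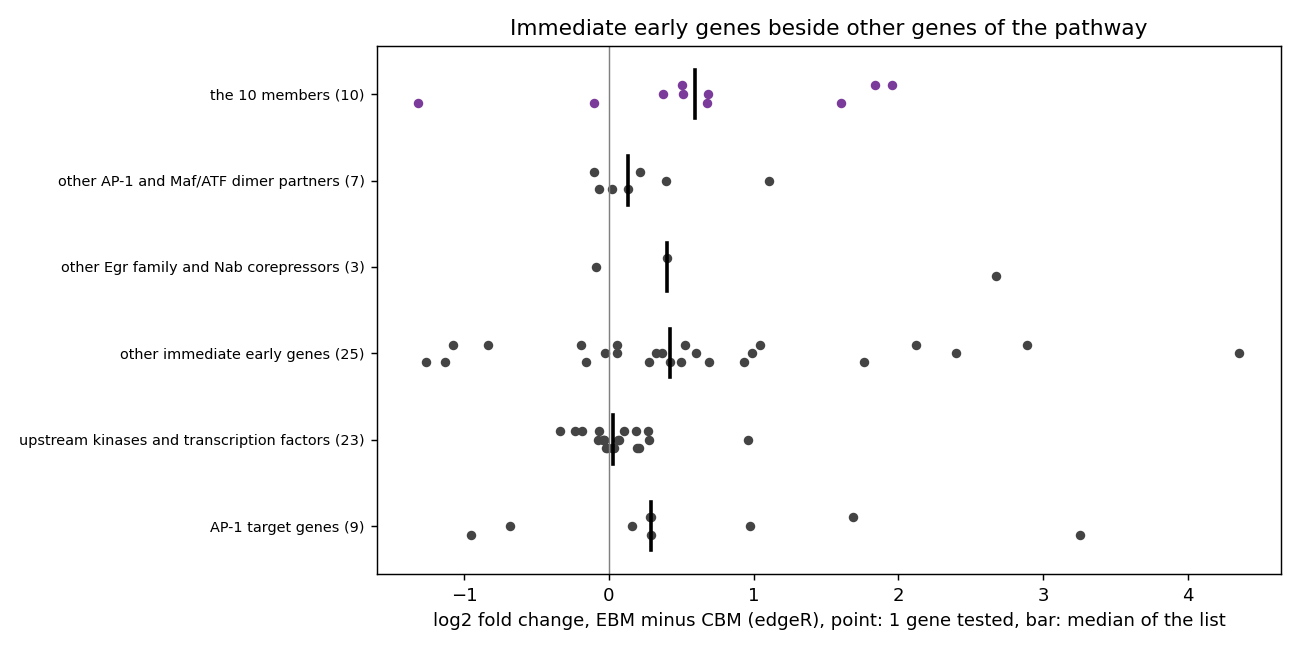
Fitted log2 fold change (x axis, EBM minus CBM, edgeR) of each tested gene of the 10 members and of the 5 pathway lists (y axis, number tested in brackets), with a black bar at the median of each list. The medians run from 0.028 for the upstream kinases and factors to 0.60 for the members, and 0 of these genes passed the adjusted threshold.

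Heat shock genes, which cells are known to induce on warming and other stress, were higher in EBM for 8 of 8 tested genes. Of all tested genes, 50.4% had a log2 fold change above 0. The median log2 fold change of the list was 0.35, with summed levels of 3194 to 4268 CPM in CBM and 4159 to 5256 CPM in EBM. Hspa1b, an inducible chaperone, was 5.54 ± 3.44 CPM in CBM and 73.7 ± 33.6 in EBM (SD, n = 3 each; log2 fold change 3.74, edgeR adjusted p = 0.121), and Hspa1a was at 4.40 (edgeR adjusted p = 0.108), and both passed DESeq2's adjusted threshold. These 2 were the only genes of the list with every EBM value above every CBM value, as 7.47% of all tested genes had, and the others overlapped between the regions. Whether heat shock genes have a part in the members' values was not tested.

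The genes whose profile over the 6 libraries was nearest to that of a member were ranked by the mean absolute difference of the centred log2 CPM. For Jun the nearest was Zfp36 (0.18 on the log2 scale, against a median of 0.55 over all tested genes), which encodes an RNA decay factor and is itself an immediate early gene, with 841, 353 and 285 CPM in CBM and 556, 540 and 359 CPM in EBM. It was followed by Gm26669 (0.20) and Tirap (0.21). For Fos the nearest were Gm10382 (0.32, median of all genes 0.79), the serum and glucocorticoid induced kinase Sgk1 (0.33) and Gm26669 (0.35), so the 3 nearest genes were farther from Fos than those of Jun were from Jun. For Egr1 they were Sidt1 (0.23, median of all genes 0.73), Gm44198 (0.27) and the chemokine Cxcl10 (0.29), and within the members Fosb (0.25) stood 2nd among all tested genes. Gm26669, Tirap, Sidt1 and Gm44198 had mean levels of 1.33, 0.690, 0.606 and 0.713 CPM, so their profiles rest on few counts. Among the members, Jund was the 5th nearest of all tested genes to Junb, at 0.12 against a median of 0.39. For members other than Junb and Egr1, the nearest fellow member stood between 11th (for Fosb) and 606th (for Fosl2), with 36th for Jun, 53rd for Fos and 192nd for Atf3. The members as a set therefore did not share 1 profile.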

How the data were processed

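RNA was measured in 6 libraries of sorted AE9a leukemia cells, 3 from CBM and 3 from EBM, as groups given in the labels. The libraries were directional, from rRNA-depleted RNA by the methods (the labels give mRNA as library type), and were read as pairs. The submitters' processing notes name HISAT2 2.0.5 and mm10. The counting tool, its annotation and its use of strand are not given in the sources used here. The authors deposited raw counts per gene, without normalization, for 54532 genes. Of these, 53585 have the same coordinates in GENCODE M21.

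Counts were filtered by filterByExpr (minimum count 10), scaled by TMM and tested with edgeR 4.0.16 (quasi-likelihood, Benjamini-Hochberg over 13352 genes, threshold 0.05). RPKM used the gene length in the table. Log2 CPM used a prior count of 2, and permutation tests enumerated 20 relabellings. DESeq2 1.42.0, limma-voom (3.58.1), other scalings and filters, a replicate block and each library left out were alternatives. The fits were tested on simulated data, with the spread set by the trend over all genes. There edgeR recovered 44.6% of log2 changes of 1, 92.6% of changes of 2 and 100% of changes of 3. The members varied more than most genes, so these shares do not carry over to them.

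The members and lists were chosen with earlier results of these data known. Named genes are the members and up to 4 genes with the smallest p of each pathway list. The 3 genes nearest in profile to Fos, Jun and Egr1 are named as well. Nr4a3 is named for its passage through the filter. Heat shock and marker genes were described as lists, of which only some genes are named. The within-library ratios and the variability of the members were examined after the values were seen.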

Additional observations from a re-analysis of the deposited data

How the results depend on the processing

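None of the members was called under any of 16 alternatives (Egr2 has no adjusted p with DESeq2), and their lowest adjusted p was 0.324 (Fosl2 without EBM replicate 3). The count of genes called, 0 in edgeR, was 173 with DESeq2, 40 with no filter on low counts and 1 without CBM replicate 1 and EBM replicate 1, an alternative added after seeing the data, as was scaling to total counts. The cause was not tested. Leaving out 1 library gave 0 genes called each time and a members' median between 0.33 and 0.94. Leaving out 1 library, Jun ran from -0.48 (without CBM replicate 3) to 0.74 (without CBM replicate 1) and Egr1 from -0.074 (without CBM replicate 3) to 1.22 (without CBM replicate 1), with Egr1 at -0.025 without EBM replicate 1. Jun changed sign also with limma-voom (0.18) and without CBM replicate 1 and EBM replicate 1 (0.67). The Jun family shares depend on length, since in CPM Jun, Junb and Jund made up 24.3%, 40.4% and 35.4% in CBM and 19.4%, 43.7% and 36.9% in EBM. The filter of 1 CPM in 3 libraries left 8 members, without Atf3 and Egr2, whose counts limit what can be seen.

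The deviations of same-numbered libraries from their group means correlated at 0.68, -0.20 and 0.20, so the numbers were not taken to pair the libraries, and CBM replicate 2 correlated best with EBM replicate 3 (0.51). With the replicate block, 0 genes and 0 members were called, the members' median was 0.65 and Jun changed sign to 0.19.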

Other observations

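Fosb was 5th of all genes by counts, and the genes next to it on chromosome 7 were looked at after this value was seen. Of its 5 neighbours on either side, the highest per length was Vasp, with a mean of 105 RPKM over the 6 libraries, and the nearest gene, Rtn2, had 0.635 RPKM against 503 for Fosb. Ercc1, on the other side, had 4.57 RPKM, with a range from 4.22 to 4.76, while Fosb ranged from 151 to 803 RPKM.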
